A study of Homo sapiens with 8 samples.

Results

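The nuclear genes of oxidative phosphorylation were described in MOLM-13 cells, an established human line of acute myeloid leukaemia. Members were the protein-coding genes whose symbols name a subunit of NADH dehydrogenase (complex I, NDUFA, NDUFB, NDUFC, NDUFS and NDUFV genes), succinate dehydrogenase (complex II, SDHA to SDHD), the cytochrome bc1 complex (complex III, UQCR genes and CYC1), cytochrome c oxidase (complex IV, COX4 to COX8 genes) or ATP synthase (complex V, ATP5 genes), together with CYCS, which encodes cytochrome c. The rule used names and no measured value. It gave 90 members among 58302 genes, of which 19847 were protein-coding: 39 in complex I, 4 in complex II, 10 in complex III, 17 in complex IV, 19 in complex V, and CYCS. Symbols are those of the deposited tables. In the older names used there, ATP5A1, ATP5B, ATP5C1 and ATP5D are now ATP5F1A to ATP5F1D, ATP5F1 is ATP5PB and ATP5L is ATP5MG.

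Cells with a hairpin against circMYBL2 (labelled Sh-cricMY1, here sh-circMYBL2), which by its name is a circular transcript of MYBL2, were compared with cells with a control hairpin (Sh-NC, here sh-NC). Each hairpin had 2 libraries of ribosome footprints, the fragments of RNA that ribosomes shield, and 2 of input RNA, 8 libraries in 4 groups. How the hairpins were delivered, for how long, and whether the 2 libraries of each group were grown separately is not given in the sources used here, so the p-values measure the spread between these libraries, which may be technical. No row was matched to circMYBL2, so its loss was not checked here.

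Oxidative phosphorylation takes place in the inner mitochondrial membrane. Complexes I and II pass electrons from NADH and succinate to ubiquinone, complex III passes them on to cytochrome c, complex IV passes them to oxygen, and complex V makes ATP from the proton gradient that complexes I, III and IV build. Complexes I, III, IV and V hold subunits of both genomes. Mitochondrial DNA encodes some of the core subunits, and nuclear genes encode all others, which are made on cytosolic ribosomes and imported. Myeloid leukaemia cells are known to be sensitive to inhibitors of this pathway.

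Between 13504574 and 14603187 reads fell on genes in each input RNA library. Footprint libraries were far shallower, with 222845 and 715058 reads in the sh-circMYBL2 libraries a and b, against 80156 and 300379 in sh-NC libraries 1 and 2. Input RNA of the 90 members correlated at r = 0.998 between the libraries of either hairpin, across genes on the log2 scale, while their footprints correlated at r = 0.860 in sh-circMYBL2 and at r = 0.536 in sh-NC. Markers of the line were present: all 10 myeloid markers (CD33, FLT3, MPO, LYZ, SPI1, CEBPA, PTPRC, ITGAM, HOXA9, MEIS1) were above 0 in every input RNA library, while 5 erythroid markers summed to at most 0.0863 FPKM. The summed myeloid markers were 1005 to 1049 FPKM in sh-circMYBL2 and 817 to 857 FPKM in sh-NC. In the input RNA fit described below, 3 of the 10 (ITGAM, FLT3, CEBPA) were called higher and 0 lower, against 4.92% and 3.96% of all genes. The markers did not move as one, with log2 changes from -0.35 to 0.65. In 6 of them both sh-circMYBL2 libraries lay above both sh-NC libraries, and in 2 both lay below. The part of these markers in the results below was not tested. Summed markers of lymphoid and adherent cells stayed at or under 2.25 FPKM in every input RNA library, and 1 of the 5 lymphoid markers had a mean of at least 1 FPKM. In footprints the lymphoid markers summed to 4.13 and 11.5 RPKM in sh-circMYBL2 (1 and 12 reads), against 0 and 1.99 RPKM in sh-NC (0 and 1 reads).

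Input RNA of the nuclear subunits was slightly higher in sh-circMYBL2 cells, in a few genes of complexes I, III, IV and V. Of 77 members with a mean of at least 1 FPKM (reads scaled to gene length and library total, which lets levels of different genes be compared), 7 rose and 0 fell at an adjusted p under 0.05, by limma on log2(FPKM + 1). Over all 12489 genes tested, 4.92% were called higher and 3.96% lower. Where the filter was a mean of at least 5 FPKM, 7 of 66 members (10.6%) were called higher, as were 10.6% of all 6263 genes. The 7 were UQCRC1, COX4I1, ATP5A1, ATP5F1, ATP5L, COX5B and NDUFA10. The median change over the 77 members was 0.07 on the log2 scale, against -0.00 over all genes tested. In 38 members both sh-circMYBL2 libraries lay above both sh-NC libraries, and in 12 both lay below. Among all genes tested, 3742 of 12489 (30%) lay above and 30.7% below in this way. At an unadjusted p under 0.05 there were 24 members (31.2%), near the 29.2% of all genes tested.

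UQCRC1 (ENSG00000010256, chromosome 3, 48599002 to 48609646), a core protein of complex III, had 26.2 and 27.6 FPKM in sh-circMYBL2, against 19.0 and 18.5 FPKM in sh-NC. The groups did not overlap, and the libraries within a group differed little. The change was 0.50 on the log2 scale (SE 0.04, limma adjusted p = 0.0153), the largest among the 7. COX4I1 (ENSG00000131143, chromosome 16, 85799695 to 85807068), the nuclear subunit through which ATP inhibits complex IV, had 37.8 and 37.4 FPKM in sh-circMYBL2, against 30.04 and 29.7 FPKM in sh-NC. Here too the sh-circMYBL2 libraries were the higher ones. Its change was 0.32 (SE 0.03, adjusted p = 0.0188).

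ATP5A1 (ENSG00000152234, chromosome 18, 46080248 to 46104227) encodes the alpha subunit of the catalytic head of ATP synthase. It had 31.4 and 31.9 FPKM in sh-circMYBL2, against 23.3 and 24.9 FPKM in sh-NC, without overlap, a change of 0.38 (SE 0.05, adjusted p = 0.0260). ATP5F1 (ENSG00000116459, chromosome 1, 111449464 to 111462773), subunit b of the peripheral stalk, had 38.1 and 37.4 FPKM in sh-circMYBL2, against 30.5 and 31.2 FPKM in sh-NC (0.28, SE 0.03, adjusted p = 0.0261). ATP5L (ENSG00000167283, chromosome 11, 118401606 to 118409847), subunit g, sits beside the proton channel in the membrane. With 92.1 and 91.5 FPKM in sh-circMYBL2, against 75.6 and 79.2 FPKM in sh-NC, it was the most abundant of the raised members (0.24, SE 0.04, adjusted p = 0.0370). In these 3 genes of complex V both sh-circMYBL2 libraries stood above both sh-NC libraries.

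COX5B (ENSG00000135940, chromosome 2, 97646062 to 97648383), a zinc-binding subunit of complex IV on the matrix side, had 39.6 and 41.0 FPKM in sh-circMYBL2, against 31.2 and 33.4 FPKM in sh-NC (0.31, SE 0.05, adjusted p = 0.0386). NDUFA10 (ENSG00000130414, chromosome 2, 239892442 to 240025342), an accessory subunit of complex I, had 16.3 and 16.5 FPKM in sh-circMYBL2, against 13.9 and 14.2 FPKM in sh-NC. Neither pair overlapped. The NDUFA10 change was 0.21 (SE 0.04, adjusted p = 0.0497), close to the threshold, and it was not called with a pseudocount of 0.1 or after quantile normalization.

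The count of 7 rested on having 2 libraries in each group. With any 1 of the 4 input RNA libraries left out, the limma calls of members were lost, as were those of all genes. The median change over members was then 0.06 to 0.08. Without the filter on low values 0 members were called, against 0.188% of all genes higher and 0.137% lower. In that fit 23 members (27.4%) had an unadjusted p under 0.05, against 15.9% of all genes. With voom on recovered reads, 18 members were called higher and 4 lower, against 13.6% and 12.5% of all genes. These 18 held all 7, and the 4 were CYCS, NDUFB9, NDUFA4L2 and ATP5S.

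**Figure D1:**
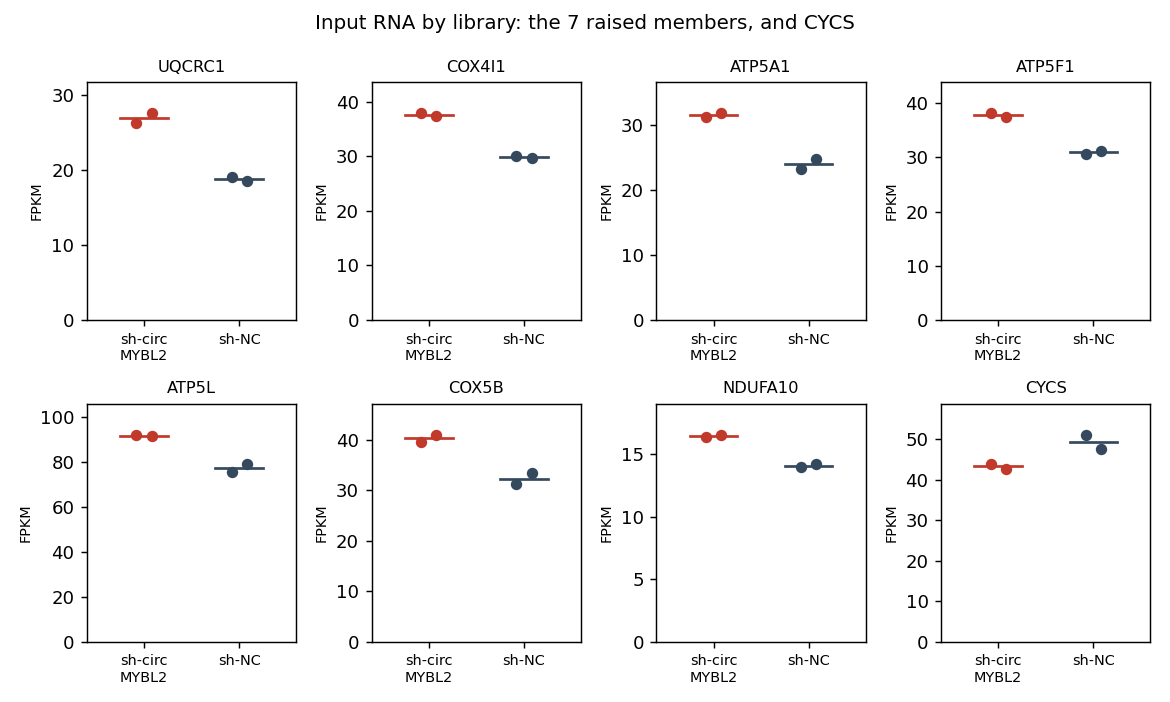
Input RNA (FPKM, axes from 0) of the 7 raised members and of CYCS in each library. Points are libraries and bars are means of 2; the sh-circMYBL2 points lie above the sh-NC points in the 7 raised members, from NDUFA10 near 16 against 14 FPKM to ATP5L near 92 against 77 FPKM, and below them in CYCS.

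Promoters of nuclear respiratory chain genes are known for binding sites of NRF1, of ETS factors such as GABP, of YY1 and of SP1. The upstream stretches of 4 raised members, 1 from complex III, 2 from complex IV and 1 from complex V, are given to show which of those letters they hold. Each is the 100 bases before the outermost RefSeq start of the gene (RefSeq, GRCh38.p14), on the strand of the gene and 5′ to 3′. Capitals mark an ETS motif (CCGGAAG) or an SP1 motif (GGGCGG) on either strand.
UQCRC1, chr3:48609647-48609746, minus strand: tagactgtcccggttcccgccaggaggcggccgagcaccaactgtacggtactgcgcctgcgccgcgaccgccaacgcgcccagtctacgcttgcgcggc
COX4I1, chr16:85799595-85799694, plus strand: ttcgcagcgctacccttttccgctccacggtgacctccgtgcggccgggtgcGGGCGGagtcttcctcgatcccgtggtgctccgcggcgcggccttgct
COX5B, chr2:97645962-97646061, plus strand: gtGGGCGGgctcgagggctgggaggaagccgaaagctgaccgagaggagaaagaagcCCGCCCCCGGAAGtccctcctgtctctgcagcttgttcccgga
ATP5A1, chr18:46104228-46104327, minus strand: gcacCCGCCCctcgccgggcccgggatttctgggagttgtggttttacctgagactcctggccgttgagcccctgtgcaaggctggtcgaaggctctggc

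The 4 motifs were searched on both strands of windows of 300 bases, 250 before and 50 after the start, 1 window for each gene. RefSeq windows matched 68 of the 90 members and 15843 protein-coding genes. NRF1 letters (GCATGCGC) stood in 20.6% of the members' windows and in 4.28% of all windows, ETS letters (CCGGAAG) in 27.9% and 14.2%, YY1 letters (AAGATGGC) in 16.2% and 3.86%, and SP1 letters (GGGCGG) in 57.4% and 58.3%. Of the 7 raised members, 1 window held the NRF1 letters (COX5B), 3 the ETS letters (ATP5L, COX4I1, COX5B), 2 the YY1 letters (ATP5F1, UQCRC1) and 6 the SP1 letters. In COX5B, an SP1 match 43 bases before the start ends where the ETS match begins. A match is a description of letters only.

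Complex I had 1 of 35 tested members higher, NDUFA10, and a median change of 0.05. In 12 of the 35 both sh-circMYBL2 libraries lay above both sh-NC libraries, and in 5 both lay below. The core subunits of complex I, which bind FMN and the iron-sulphur clusters, had 0 of 6 tested members called and a median of 0.01. NDUFS5, an accessory subunit facing the intermembrane space, had by far the most input RNA for its length of all members, with 588 and 602 FPKM in sh-circMYBL2 and 602 and 618 FPKM in sh-NC. These values overlapped, and NDUFS5 alone made up 45.6% to 47.9% of the summed complex I level in the 4 libraries. NDUFB9, a membrane arm subunit, had 78.4 and 78.9 FPKM in sh-circMYBL2, against 86.6 and 91.8 FPKM in sh-NC. It was the most clearly separated complex I gene in the other direction, without overlap, at -0.18 (SE 0.04, limma adjusted p = 0.0729), and was called lower where the filter was a mean of at least 5 FPKM.

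NDUFA4 carries a complex I name but is known as a subunit of complex IV. It had 9.95 and 10.6 FPKM in sh-circMYBL2, against 9.01 and 8.11 FPKM in sh-NC, without overlap (0.24, SE 0.07, adjusted p = 0.116). Its paralogue NDUFA4L2, a hypoxia-induced gene, had 1.49 and 2.41 FPKM in sh-circMYBL2, against 4.31 and 3.29 FPKM in sh-NC. That pair pointed the other way and also did not overlap (-0.71, SE 0.20, adjusted p = 0.111). Neither paralogue passed the threshold.

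Complex II had 0 of 4 members called and a median of 0.06. SDHB, the iron-sulphur subunit, was its most abundant transcript, with 28.4 and 29.1 FPKM in sh-circMYBL2 and 30.1 and 29.3 FPKM in sh-NC (-0.05, SE 0.04, adjusted p = 0.443). SDHA, the flavoprotein that oxidises succinate, had 5.16 and 5.05 FPKM in sh-circMYBL2, against 4.56 and 4.38 FPKM in sh-NC (0.16, SE 0.06, adjusted p = 0.168). Both sh-circMYBL2 libraries lay above in SDHA and below in SDHB, and neither change passed the threshold. The membrane anchor SDHD had 9.14 and 7.76 FPKM in sh-circMYBL2 and 8.50 and 6.54 FPKM in sh-NC, which overlapped.

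Complex III had 1 of 10 members higher, UQCRC1, with a median of 0.10. In 8 of the 10 both sh-circMYBL2 libraries lay above both sh-NC libraries, and in 1 both lay below. Among all genes tested, 30% lay above and 30.7% below in this way, and 4.92% were called higher. Whether any complex stands out from all genes was not tested. The second core protein, UQCRC2, differed by 0.14 (SE 0.04, adjusted p = 0.125) and is named as the partner of UQCRC1. UQCRH, the hinge protein near cytochrome c1, was the most abundant transcript of the complex, with 117 and 115 FPKM in sh-circMYBL2, against 104 and 107 FPKM in sh-NC. Its libraries did not overlap, and it missed the threshold (0.14, SE 0.03, adjusted p = 0.0797), which it passed after scaling to the protein-coding total. UQCRHL, a near copy of UQCRH without introns, had 1.52 and 1.55 FPKM in sh-circMYBL2 and 1.62 and 1.63 FPKM in sh-NC. Reads of the pair may be split between them by the counting, so both levels are uncertain. CYC1, cytochrome c1, had 17.9 and 18.9 FPKM in sh-circMYBL2, against 15.8 and 16.5 FPKM in sh-NC (0.17, SE 0.05, adjusted p = 0.108).

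The small subunits UQCR10 and UQCR11 stood far apart in level. UQCR10 had 67.3 and 69.6 FPKM in sh-circMYBL2 and 60.9 and 64.9 FPKM in sh-NC, while UQCR11 had 2.61 and 2.75 FPKM in sh-circMYBL2 and 2.52 and 2.58 FPKM in sh-NC. Both changes were small (0.12 for UQCR10 and 0.05 for UQCR11) and did not pass.

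Complex IV had 2 of 11 tested members higher, COX4I1 and COX5B, with a median of 0.08. In 7 of the 11 both sh-circMYBL2 libraries lay above both sh-NC libraries, and in 0 both lay below. The shares of all genes tested were 30% and 30.7%. COX6C had the highest level, 152 and 161 FPKM in sh-circMYBL2 and 151 and 148 FPKM in sh-NC. The heart, muscle, lung or testis isoforms were silent: COX4I2, COX6A2, COX7A1, COX7B2 and COX8C were at 0 in all 4 input RNA libraries and COX6B2 had at most 0.0181 FPKM. Their widely expressed partners were well measured. COX6B1 had 75.3 and 79.8 FPKM in sh-circMYBL2 and 74.9 and 72.3 FPKM in sh-NC, COX7A2 had 47.3 and 47.8 FPKM in sh-circMYBL2 and 47.6 and 50.2 FPKM in sh-NC, and COX8A had 17.8 and 23.1 FPKM in sh-circMYBL2 and 20.5 and 15.5 FPKM in sh-NC. COX7A2L, known for joining complexes III and IV into supercomplexes, had 17.1 and 15.8 FPKM in sh-circMYBL2 and 16.5 FPKM in either sh-NC library. COX5A had 26.1 and 29.2 FPKM in sh-circMYBL2 and 21.5 and 24.8 FPKM in sh-NC, without overlap (0.25, SE 0.09, adjusted p = 0.178). None of these 5 genes passed the threshold.

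Complex V had 3 of 16 tested members higher and a median of 0.12. In 10 of the 16 both sh-circMYBL2 libraries lay above both sh-NC libraries, and in 4 both lay below. The shares of all genes tested were again 30% and 30.7%. In the catalytic head, ATP5A1 rose, and its partner ATP5B, the catalytic beta subunit, had 55.6 and 53.5 FPKM in sh-circMYBL2, against 50.6 and 49.1 FPKM in sh-NC (0.13, SE 0.04, adjusted p = 0.117). ATP5C1, the rotating gamma subunit, had 29.5 and 28.04 FPKM in sh-circMYBL2, against 26.7 and 25.9 FPKM in sh-NC (0.12, SE 0.04, adjusted p = 0.156). Both stood above without overlap and did not pass. The delta subunit ATP5D showed a wider gap that did not pass, 4.87 and 6.24 FPKM in sh-circMYBL2 against 4.04 and 3.27 FPKM in sh-NC (0.49, SE 0.15, adjusted p = 0.121). ATP5D was chosen after its values were seen.

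The 3 ATP5G genes encode the same mature c subunit of the proton-driven ring. ATP5G2 was the most abundant, with 21.6 and 21.1 FPKM in sh-circMYBL2 and 20.6 and 19.99 FPKM in sh-NC. ATP5G3 had 5.28 and 5.32 FPKM in sh-circMYBL2 and 5.05 and 4.52 FPKM in sh-NC, and ATP5G1 had 5.76 and 5.69 FPKM in sh-circMYBL2 and 5.69 and 6.40 FPKM in sh-NC. The order of ATP5G2 above the other two genes held in all 4 libraries, while ATP5G1 and ATP5G3 lay close together. None of the 3 passed the threshold.

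CYCS, which carries electrons from complex III to complex IV, had 43.9 and 42.7 FPKM in sh-circMYBL2, against 51.0 and 47.7 FPKM in sh-NC. It lay below without overlap, opposite to the raised members, at -0.18 (SE 0.05, adjusted p = 0.0905). Members that are copies, read-through genes or no subunits were low or silent: NDUFC2-KCTD14 was at 0 in every input RNA library, ATP5J2-PTCD1, ATP5EP2 and ATP5L2 stayed under 1 FPKM, and ATP5S, now DMAC2L and not a subunit, had 2.96 to 3.16 FPKM in sh-circMYBL2 and 3.54 to 3.75 FPKM in sh-NC.

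**Figure D2:**
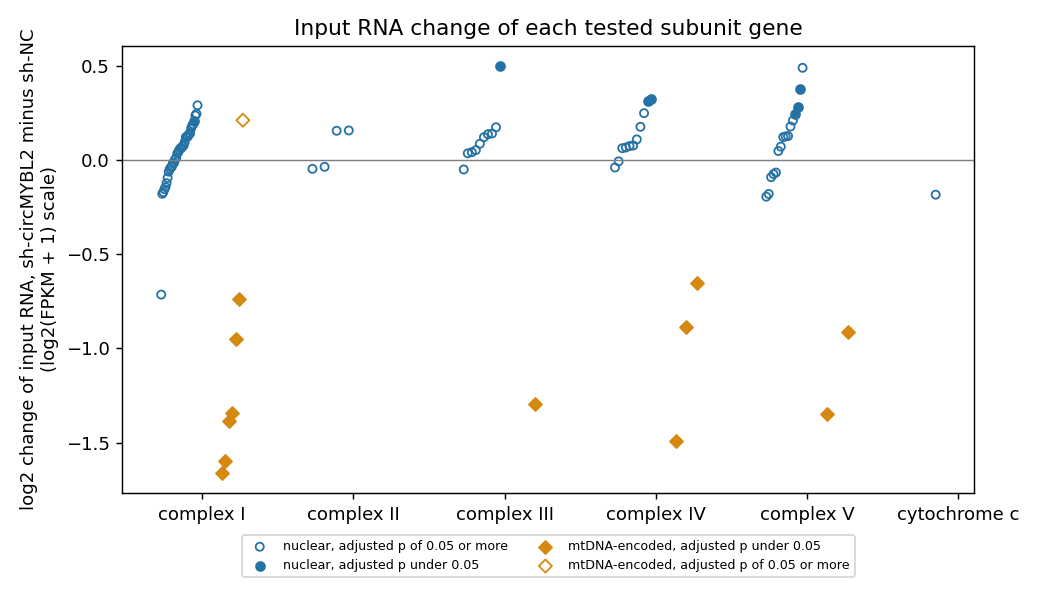
Log2 change of input RNA (sh-circMYBL2 minus sh-NC, log2(FPKM + 1) scale) of each tested subunit gene by complex; circles are nuclear genes, diamonds genes of mitochondrial DNA, filled where the limma adjusted p is under 0.05. Nuclear genes lie between -0.71 and 0.50, and 12 of the 13 mitochondrial genes lie at -0.65 or lower.

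The 13 subunits encoded by mitochondrial DNA were measured in the same libraries. Of these, 12 fell in sh-circMYBL2 cells and MT-ND6, from the other strand, did not pass (0.21, adjusted p = 0.208). Within complex I the median change was -1.34 over 7 mitochondrial genes and 0.05 over 35 nuclear ones. Within complex IV it was -0.89 over 3 mitochondrial genes and 0.08 over 11 nuclear ones, and within complex V -1.13 over 2 and 0.12 over 16. MT-CYB, the only mitochondrial gene of complex III, fell by 1.30 (SE 0.05, adjusted p = 0.00720), while the 10 nuclear members had a median of 0.10. The difference between the genomes was not tested as such.

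Mitochondrial messages took 3.68% and 3.53% of input RNA reads in sh-circMYBL2 libraries, against 5.88% and 5.76% in sh-NC libraries. The part of this share in the small rise of nuclear genes was not tested. Counted within nuclear protein-coding reads alone, the 90 members held 0.952% and 0.958% in sh-circMYBL2, against 0.916% and 0.912% in sh-NC. The 95% Wilson intervals of the single libraries lay between 0.946% and 0.964% in sh-circMYBL2 and between 0.906% and 0.922% in sh-NC, and cover counting error only. In bulk samples such as these, fewer cells of a kind and less RNA in each cell cannot be told apart.

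Summed over its nuclear members, complex III had 426 and 429 FPKM in sh-circMYBL2, against 391 and 396 FPKM in sh-NC. Complex IV had 577 and 607 FPKM in sh-circMYBL2, against 557 and 541 FPKM in sh-NC, and complex V had 553 and 557 FPKM in sh-circMYBL2, against 514 and 526 FPKM in sh-NC. In these 3 complexes the groups did not overlap, by a margin of a few percent. Complex I had 1289 and 1304 FPKM in sh-circMYBL2 and 1278 and 1291 FPKM in sh-NC, and complex II 47.7 and 46.4 FPKM in sh-circMYBL2 and 48.0 and 45.1 FPKM in sh-NC. The groups of complexes I and II overlapped.

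**Figure D3:**
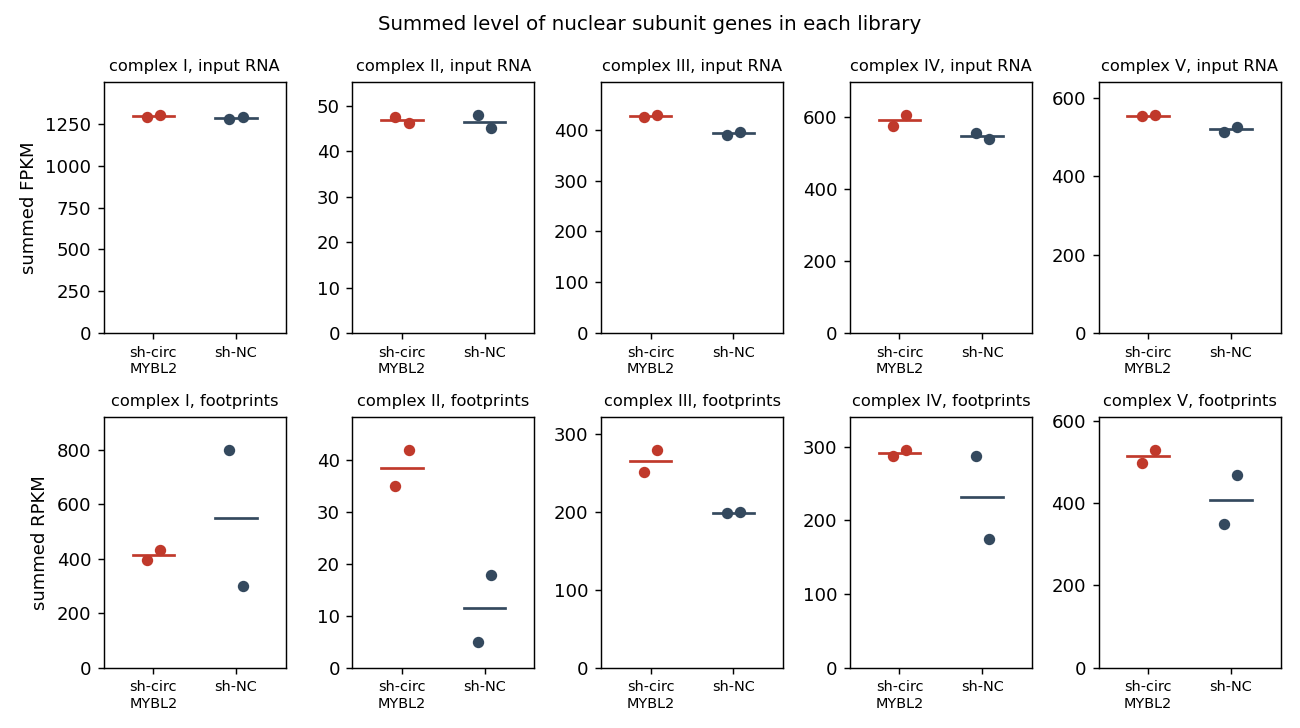
Summed level of the nuclear subunit genes of each complex by library, input RNA in FPKM above and footprints in RPKM below, axes from 0. Points are libraries and bars are means of 2; in input RNA the hairpins separate in complexes III, IV and V and overlap in I and II, and the sh-NC footprint libraries of complex I stand far apart, at 800 and 302 RPKM.

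Genes that build, feed and regulate the complexes were read against the same shares of all genes, 4.92% higher and 3.96% lower. Of 47 tested assembly factors, 1 rose, TMEM70 (0.30, limma adjusted p = 0.0357), which builds ATP synthase. The 4 that fell were COX20 (-0.85, adjusted p = 0.0160), a chaperone of a mitochondrial complex IV subunit, COX19 (-0.42, adjusted p = 0.0262) and COX17 (-0.35, adjusted p = 0.0357), which serve copper delivery to complex IV, and SDHAF3 (-0.49, adjusted p = 0.0286), a factor of complex II. The median of assembly factors was -0.04. Among 14 enzymes of the tricarboxylic acid cycle, which feeds electrons to the chain, 1 rose, the mitochondrial isocitrate dehydrogenase IDH2 (0.70, adjusted p = 0.0472), and 0 fell. Of 16 tested regulators of mitochondrial genes, YY1 was higher (0.34, adjusted p = 0.0462) and TFB1M, a methyltransferase of mitochondrial ribosomal RNA, lower (-0.24, adjusted p = 0.0493). NRF1 did not pass (0.13, adjusted p = 0.352). Like the member calls, those of these lists and of the mitochondrial genes were all lost with any 1 input RNA library left out.

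No single subunit passed the test in footprints. Reads on the members numbered 1015 and 4841 in sh-circMYBL2 libraries a and b, against 320 and 615 in sh-NC libraries 1 and 2. They made up 0.811% and 0.831% of nuclear protein-coding footprint reads in sh-circMYBL2, and 0.958% and 0.698% in sh-NC. The sh-circMYBL2 shares lay between those of the sh-NC libraries. Of 74 members tested on log2(RPKM + 1), 0 were called by limma, as were 0% of all 9431 genes. An unadjusted p under 0.05 was found for 16 members (21.6%) and for 12.9% of all genes. With voom 0 members were called as well, against 0.0636% of all genes higher and 0.530% lower.

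Summed over the nuclear members, footprints of complex II were 34.9 and 41.9 RPKM in sh-circMYBL2, against 4.94 and 17.8 RPKM in sh-NC. These complex II sums rested on 40 and 210 reads in sh-circMYBL2 and on 1 and 23 reads in sh-NC. In sh-NC library 2 the Wilson interval of the complex II share of nuclear protein-coding reads was 0.0174% to 0.0392%. That interval covered the shares of both sh-circMYBL2 libraries, 0.0320% and 0.0360%. Complex III had 252 and 280 RPKM in sh-circMYBL2, against 199 RPKM in either sh-NC library, and complex V had 497 and 529 RPKM in sh-circMYBL2, against 348 and 469 RPKM in sh-NC. In these 3 complexes both sh-circMYBL2 libraries lay above both sh-NC libraries. Complex IV had 288 and 296 RPKM in sh-circMYBL2, against 287 and 175 RPKM in sh-NC, so that its groups touched. Complex I, with 394 and 434 RPKM in sh-circMYBL2 and 800 and 302 RPKM in sh-NC, overlapped. All 90 members together had 1478 and 1602 RPKM in sh-circMYBL2 and 1639 and 1171 RPKM in sh-NC, also with overlap.

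The median footprint change over the 74 members was 0.57, against 0.56 over all genes tested, and that common shift depended on the scaling: over all genes it was 0.42 with the protein-coding total and 0.07 after quantile normalization, where the members had 0.39 and 0.36. With the members that had no sh-NC read set to their bound, the members' median was 0.43. Among the 39 members with a read in all 4 libraries it was 0.21, against -0.01 over all such genes. Of these 39, 8 lay above and 3 below without overlap, and 22.5% of all such genes lay above and 21.9% below. With sh-circMYBL2 library a or b left out, 8 or 9 members were called higher (11.3% and 12.5%, against 8.26% and 7.92% of all genes in the same fits), and every such call was of a gene with no read in either sh-NC library.

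ATP5B had by far the most footprints, with 273 and 302 RPKM in sh-circMYBL2 (164 and 781 reads), against 89.0 and 299 RPKM in sh-NC (17 and 129 reads). Library 1 of sh-NC stood apart and library 2 matched the sh-circMYBL2 libraries (0.81, SE 0.69, limma adjusted p = 0.655). CYC1 came next, with 119 and 125 RPKM in sh-circMYBL2 and 117 and 95.5 RPKM in sh-NC. Its 4 libraries were close together (0.21, SE 0.35, adjusted p = 0.818).

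The members raised in input RNA varied in footprints. UQCRC1 had 48.9 and 31.1 RPKM in sh-circMYBL2 and 22.5 and 36.6 RPKM in sh-NC (0.43, SE 0.49, adjusted p = 0.740). ATP5A1 had 34.0 and 32.9 RPKM in sh-circMYBL2 and 24.5 and 35.1 RPKM in sh-NC (0.18, SE 0.42, adjusted p = 0.869), and COX4I1 had 17.7 and 23.4 RPKM in sh-circMYBL2 and 27.9 and 19.1 RPKM in sh-NC (-0.17, SE 0.47, adjusted p = 0.887). In each of these 3 the groups overlapped. ATP5F1 had 18.3 and 35.6 RPKM in sh-circMYBL2 and 18.0 and 0 RPKM in sh-NC, COX5B had 37.5 and 21.8 RPKM in sh-circMYBL2 and 16.9 and 0 RPKM in sh-NC, and ATP5L had 3.43 and 8.23 RPKM in sh-circMYBL2 and 0 and 11.1 RPKM in sh-NC. NDUFA10 was the only raised member without a 0 whose footprint groups stood apart, with 6.49 and 4.25 RPKM in sh-circMYBL2 against 1.28 and 2.26 RPKM in sh-NC, which were 16 and 45 reads against 1 and 4.

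Other well-covered members of their complexes showed the same scatter between the sh-NC libraries. COX5A had 49.3 and 37.6 RPKM in sh-circMYBL2 and 77.5 and 15.3 RPKM in sh-NC, COX8A 76.2 and 67.3 RPKM in sh-circMYBL2 and 23.98 and 95.6 RPKM in sh-NC, and NDUFB9 38.2 and 27.0 RPKM in sh-circMYBL2 and 87.9 and 22.5 RPKM in sh-NC. In all 3 the sh-circMYBL2 values fell between those of sh-NC. NDUFS5 had 0 and 27.9 RPKM in sh-circMYBL2 and 133 and 19.7 RPKM in sh-NC, from 25 reads in all 4 libraries. SDHB had 20.4 and 16.1 RPKM in sh-circMYBL2, against 4.94 and 6.56 RPKM in sh-NC, and CYCS had 12.1 and 21.6 RPKM in sh-circMYBL2, against 0 and 8.46 RPKM in sh-NC. SDHB and CYCS did not overlap and did not pass (1.51, adjusted p = 0.361 for SDHB).

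**Figure D4:**
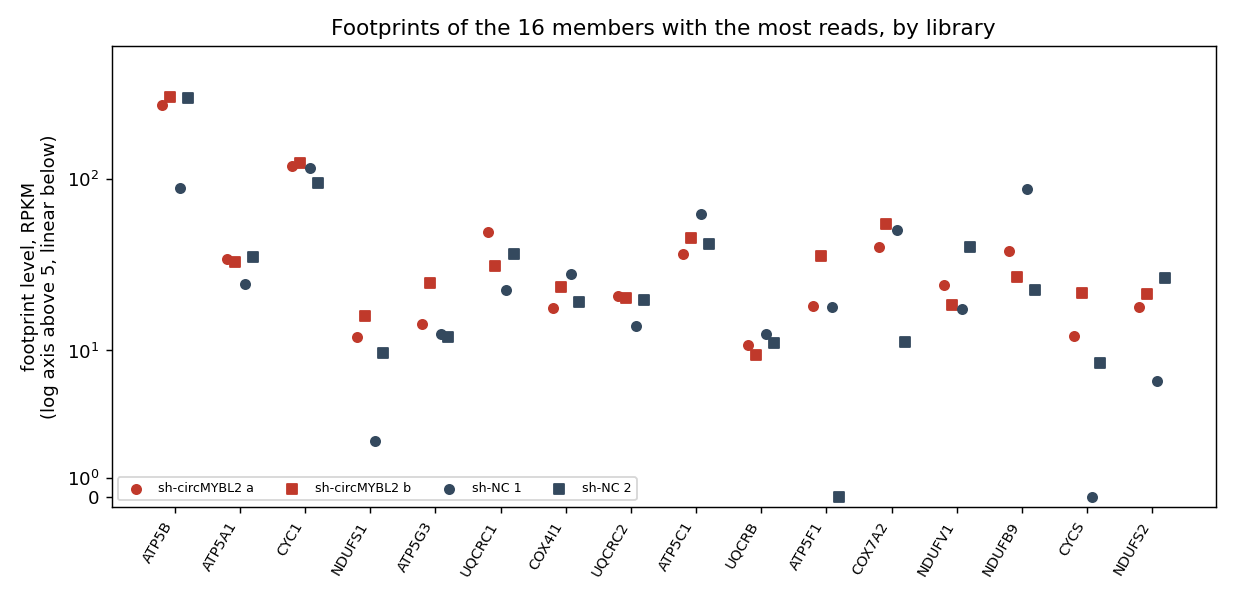
Footprint level (RPKM, log axis above 5 and linear below) of the 16 members with the most reads, by library. Circles and squares are the libraries of a hairpin; the sh-NC points of ATP5B lie at 89.0 and 299 RPKM and those of NDUFB9 at 87.9 and 22.5 RPKM, on both sides of or beside the sh-circMYBL2 points.

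Pooled over the libraries of a hairpin, 25 members had at least 10 sh-NC reads. The ratio of scaled reads, sh-circMYBL2 over sh-NC, had a 95% counting interval above 1 in 4 of them and below 1 in 3. The 4 were COX7A2 (2.23, interval 1.24 to 4.42), NDUFS1 (1.999, interval 1.32 to 3.15), ATP5G3 (1.88, interval 1.21 to 3.07) and ATP5B (1.26, interval 1.06 to 1.51). The 3 were ATP5H (0.195, interval 0.1204 to 0.317), NDUFA9 (0.284, interval 0.124 to 0.677) and NDUFV1 (0.586, interval 0.400 to 0.874). These intervals leave out the spread between libraries, and the genes were named after their values were seen. The share of all genes with such intervals was not worked out, so whether the members stand out was not tested.

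ATP5H, subunit d of the peripheral stalk, showed the clearest gap downward. It had 13.1 and 7.23 RPKM in sh-circMYBL2 (11 and 26 reads), against 33.9 and 46.7 RPKM in sh-NC (9 and 28 reads). Both sh-NC libraries lay above both sh-circMYBL2 libraries, while its input RNA overlapped, at 84.3 and 85.6 FPKM in sh-circMYBL2 and 76.7 and 88.0 FPKM in sh-NC. The footprint change was -1.92 (SE 0.52, limma adjusted p = 0.323).

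Some members had footprint reads with a single hairpin: 19 members had reads in sh-circMYBL2 and none in either sh-NC library, 13 of them in both sh-circMYBL2 libraries, and 0 showed the reverse. The 19 were 23.8% of the 80 members with a footprint read, while 33.5% of all 12891 genes with a footprint read had reads with sh-circMYBL2 alone and 2.14% with sh-NC alone. The sh-circMYBL2 libraries had 5.12 times the scaling total of the sh-NC libraries, so a gene at an equal level could be missed in sh-NC. The 19 were picked for having no sh-NC read, so their direction was fixed beforehand and gives no support for a change. Set against a floor of 3 reads over both sh-NC libraries, 9 of the 19 had a scaled ratio above 1. The floor gave a lower bound of 3.77-fold for SDHD (5 and 53 reads against none) and of 3.32-fold for UQCR11 (7 and 44 reads). For NDUFB11, a membrane arm subunit of complex I, it was 3.25-fold (7 and 43 reads). It was 2.47-fold for NDUFA5 and 1.82-fold for NDUFC2, and the other 4 lay between 1.04-fold (ATP5J2) and 1.69-fold. These bounds rest on the deposited scaling, take the sh-circMYBL2 reads as exact and cover no spread between libraries. The share of all genes above this floor was not worked out. No footprint read was found in any library for 10 members.

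Translational efficiency (TE), the change of footprints beyond that of input RNA, was tested as an interaction over all 8 libraries. Of 72 members tested, 7 were called higher and 0 lower by limma, where 5.05% of all genes were called higher and 0.266% lower. They were NDUFB11 (4.73, SE 0.38, adjusted p = 0.0170), UQCR11 (3.97, SE 0.42, adjusted p = 0.0222), NDUFC2 (3.04, adjusted p = 0.0237), UQCR10 (2.28, adjusted p = 0.0284), NDUFB6 (3.12, adjusted p = 0.0319), ATP5J2 (2.56, adjusted p = 0.0324) and SDHD (3.40, adjusted p = 0.0431). All 7 had 0 footprint reads in both sh-NC libraries, as had 396 (95.0%) of the 417 genes called higher in the whole table. Fitted changes of such genes depend on the pseudocount and are no bounds. Of 978 tested genes with no sh-NC footprint read, 40.5% were called higher, as were 7 of 13 such members. They passed the footprint filter through sh-circMYBL2 alone, and 2 sh-NC values of 0 add no spread to the fit. Their SE and p-values therefore give no support for a change.

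Some of those calls rested on few reads. UQCR10 rested on 1 and 5 reads and NDUFB6 on 1 and 8 reads in sh-circMYBL2, below the floor when scaled to sh-NC depth. Their footprint levels were 3.96 and 4.61 RPKM for UQCR10 and 5.57 and 10.4 RPKM for NDUFB6 in sh-circMYBL2, against 0 in sh-NC. NDUFB11 had 19.1 and 27.2 RPKM in sh-circMYBL2, against 0 in sh-NC, with input RNA of 14.3 and 14.0 FPKM in sh-circMYBL2 and 15.4 and 16.3 FPKM in sh-NC. It alone was called higher by voom (adjusted p = 0.0455), which is 1.39% of members, against 1.63% of all genes. That call rests on the same 2 sh-NC values of 0 and gives no support for a change either. UQCR11 had 12.6 and 18.4 RPKM in sh-circMYBL2, SDHD 6.80 and 16.8 RPKM, NDUFC2 7.28 and 7.79 RPKM and ATP5J2 6.79 and 4.74 RPKM, each against 0 in sh-NC. Input RNA of NDUFC2 was 7.33 and 6.595 FPKM in sh-circMYBL2 and 6.95 and 6.39 FPKM in sh-NC, of NDUFB6 7.16 and 6.05 FPKM in sh-circMYBL2 and 7.04 and 6.31 FPKM in sh-NC, and of ATP5J2 10.1 and 10.02 FPKM in sh-circMYBL2 and 9.58 and 8.03 FPKM in sh-NC.

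The TE count moved widely with the libraries used. It was 0 with any input RNA library left out. Without sh-circMYBL2 footprint library a it was 11 higher (15.9%, against 9.35% of all genes) and 1 lower (ATP5H), and without library b 12 higher (17.1%, against 8.38%). Without sh-NC footprint library 1 it was 26 higher and 5 lower (36.6% and 7.04%, against 26.1% and 11.1% of all genes). Without sh-NC library 2 it was 29 higher and 12 lower (40.3% and 16.7%, against 45.3% and 15% of all genes). With a pseudocount of 5, or after quantile normalization, 0 members were called. The median TE change over the 38 members above 0 in all 8 libraries was 0.01, against 0.03 over all such genes. By complex, 3 of 32 tested members were called in complex I, 1 of 4 in complex II, 2 of 9 in complex III, 0 of 11 in complex IV and 1 of 15 in complex V. Every such call was of a gene with no footprint read in sh-NC. COX6B1, the complex IV member with the smallest TE p, had 20.6 and 23.0 RPKM in sh-circMYBL2, against 0 and 5.76 RPKM in sh-NC (3.06, SE 1.18, adjusted p = 0.234).

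Within a hairpin, the ratio of footprints to input RNA ordered the members over a wide range. The tables were scaled apart, so only the order is used. Both levels of a gene were divided by the same whole-gene length, such as 9715 bases for UQCRB and 3066 for COX6C. How much of that length is translated was not taken into account. Its part in the order, and in the ratios compared below, was not tested. Among 46 members with at least 30 footprint reads in sh-circMYBL2, CYC1 stood at the top with a log2 ratio of 2.73, followed by UQCR11 (2.53), NDUFS7 (2.48), ATP5B (2.40), ATP5G3 (1.88) and COX8A (1.81). The NDUFS7 ratio rested on input RNA of 0.698 and 0.622 FPKM in sh-circMYBL2, under the filter of the fits. At the bottom stood ATP5L (-3.98), COX6C (-3.20), ATP5H (-3.06) and UQCRB (-2.83). Small accessory subunits stood at both ends, UQCR11 and COX8A near the top and ATP5L and COX6C at the bottom. ATP5L had 92.1 and 91.5 FPKM of input RNA but 3.43 and 8.23 RPKM of footprints. Only 8 members had 30 reads in sh-NC, where CYC1 (2.72) and ATP5B (1.96) were again highest and UQCRB (-2.56) lowest.

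The c-ring genes showed the spread within a family. In sh-circMYBL2 the log2 ratio was 1.88 for ATP5G3, 0.93 for ATP5G1 and -1.13 for ATP5G2, the reverse of the order of ATP5G2 and ATP5G3 in input RNA. ATP5G3 footprints were 14.2 and 24.8 RPKM in sh-circMYBL2 and 12.6 and 11.9 RPKM in sh-NC, ATP5G1 footprints 13.3 and 8.59 RPKM in sh-circMYBL2 and 13.9 and 12.4 RPKM in sh-NC, and ATP5G2 footprints 12.6 and 6.98 RPKM in sh-circMYBL2 and 18.3 and 1.35 RPKM in sh-NC. ATP5G3 was the only one of the 3 without overlap. In sh-circMYBL2 the median ratio was -0.39 over the 46 members and -0.10 over 5229 nuclear protein-coding genes with 30 reads. In sh-NC it was 0.65 over the 8 members and 0.22 over 987 such genes. The wider sets also needed a mean input RNA of at least 1 FPKM, a filter not set for the members.

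**Figure D5:**
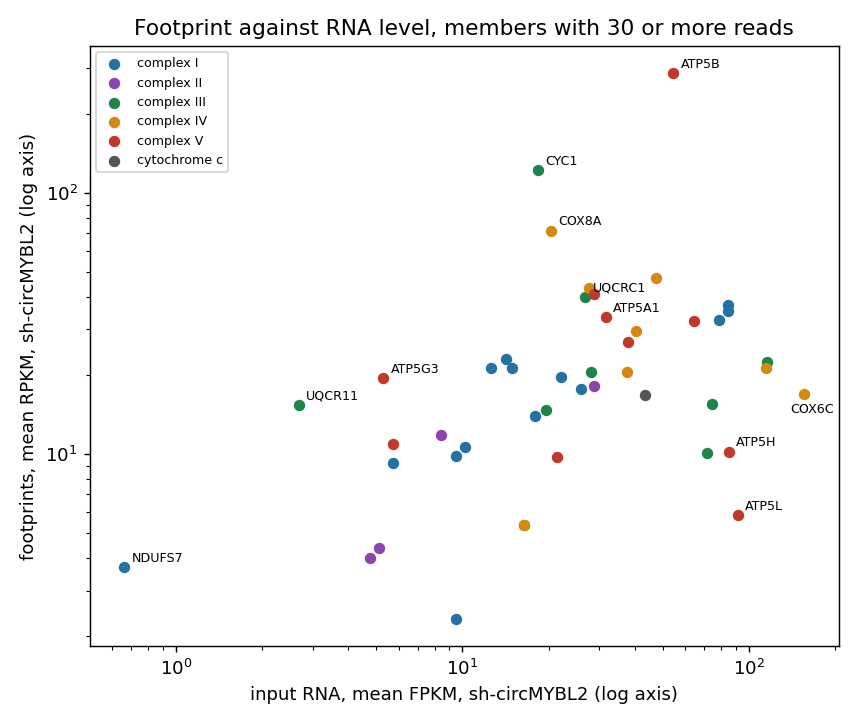
Mean footprint level (RPKM) against mean input RNA level (FPKM) of the 46 members with at least 30 footprint reads in sh-circMYBL2, log axes, coloured by complex. ATP5B and CYC1 lie far above genes with like RNA levels, and ATP5L, ATP5H and COX6C far below.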

How the data were processed

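Titles gave the groups. Ribosomal RNA was depleted and libraries made with small RNA chemistry, per the labels' protocols. Build hg38 and the tools DESeq2, featureCounts, HISAT2, Bowtie and cutadapt are named, per the submitters' processing notes. No source used here gives their versions, roles, read totals or strand setting, so overlapping, antisense and pseudogene reads may be mixed. The authors deposited RPKM values for footprints and FPKM values for input RNA, each a read number divided by gene length and by a library total.

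Values times length were whole multiples of a step in each library (98.6% to 99.4% of microRNA values, within 0.02 reads), so reads were recovered for all but 1 of 30194 genes. The totals the authors scaled to differ from the reads on genes (185632 against 300379 in sh-NC footprint library 2). Recovered reads gave depths, shares, a floor of 3 reads and the voom alternative.

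Each table was fitted with limma 3.58.1 in R 4.3.3 (lmFit, eBayes with trend, two-sided) on log2(value + 1), which understates changes of low genes. Genes needed a mean value of 1 or more. Reported changes are on this scale, and SE is that of the fit. TE was the hairpin by assay interaction, with 1 variance for both assays, so its p-values may be too small. Benjamini-Hochberg adjustment ran over all genes tested, with a threshold of 0.05. Exact permutation of 2 against 2 cannot go below p = 0.333. Fits were also run on simulated data, with a spread between replicates that was set and not taken from the sh-NC footprints. For TE only genes of higher footprint levels were simulated, so the members called in TE lay outside that range.

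Members and lists were chosen with earlier results of these data known. Values of each library are given for members past the threshold, for those with the most RNA, most footprints or smallest p in their complex, for paralogue pairs and for NDUFA4; the lists' 2 genes with the smallest p in each direction are named, and TE level needed 30 reads. The sh-circMYBL2 footprint columns carry no replicate number and are called a and b. Coordinates and sequences are RefSeq's for GRCh38.p14. Alternatives were other pseudocounts, filters and scalings, voom, a replicate block and leaving out each library. Complex I without NDUFS5, and members above 0 in all libraries, were added after seeing the data.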

Additional observations from a re-analysis of the deposited data

How the results depend on the processing

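Input RNA calls depended on the filter, the model and the number of libraries. Against 7 higher and 0 lower, the count was 0 higher without the filter and 0 with the replicate number as a block. It was 18 higher and 4 lower with voom, and 7 higher and 1 lower with a mean of at least 5. Over all genes, 0% were called with the block, and 10.6% higher and 9.47% lower with a mean of at least 5. All member calls were lost in each fit that left out 1 library. The block had little to rest on: same-numbered input RNA libraries deviated together with r = 0.0265, and there were 2 numbers. No paired analysis was possible for footprints or TE because the sh-circMYBL2 columns carry no number. The median input RNA change was 0.10 with the protein-coding total. The cause of these moves was not tested.

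With a log2 ratio of summed input RNA of 0.01, complex I gave 0.0434 with the protein-coding total, 0.0472 as a median over members and 0.0548 without NDUFS5. Complex II gave 0.128 as a median, complex III 0.152 with the protein-coding total and 0.316 as a median, and complex V 0.123 and 0.220 in that order. In footprints, complex I gave -0.41 as a sum and 0.958 as a median, and complex III 0.220 with the protein-coding total and 0.568 as a median. With the protein-coding total, footprint ratios were -0.66 for complex I, 0.12 for complex IV (0.34 as deposited), 0.15 for complex V (0.33) and -0.08 for all 90 members (0.13).

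TE calls of 7 members higher became 13 with a pseudocount of 0.1, 0 with a pseudocount of 5, 1 with a mean of at least 5, 0 after quantile normalization and 1 with voom. Leaving out 1 library gave 0 to 29 higher and 0 to 12 lower in TE, and 0 to 9 higher in footprints. With a minimum of 100 reads, 1 member was left in sh-NC (ATP5B), whose TE level lay 1.35 above the median of 92 nuclear protein-coding genes.

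Small changes turned sign. With the protein-coding total, input RNA changes of NDUFB6 and COX7A2L were 0.0116 and 0.0218, and the ATP5A1 footprint change was -0.00156. With 1 library left out, input RNA ranged from -0.1202 to 0.0905 for NDUFB6, -0.0130 to 0.121 for NDUFC2, -0.0117 to 0.323 for SDHD, -0.0610 to 0.0470 for COX7A2L, -0.0138 to 0.367 for COX8A and -0.139 to 0.00653 for ATP5G1. Footprints ranged from -0.434 to 0.0890 for COX4I1, -0.0674 to 0.432 for ATP5A1 and -0.0599 to 1.68 for ATP5B. None of these was called. Footprints were shallow: members with any read numbered 70 and 79 in sh-circMYBL2 libraries a and b, against 51 in either sh-NC library.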
